A study of Mus musculus with 12 samples.

Results

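In all, 8 genes that mark the secretory and ciliated cells of the airway lining were followed through 12 RNA libraries of sorted mouse alveolar type II (ATII) cells. The 8 genes were Scgb1a1, Scgb3a1, Scgb3a2, Cyp2f2, Bpifa1 and Muc5b for secretory cells (6 genes) and Foxj1 and Tppp3 for ciliated cells (2 genes). They were taken by symbol from the 23238 symbols of the count tables, and each was measured as read counts and as CPM, its count per 1000000 counts of its library.

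The libraries fall into 4 groups of 3, each library from 1 mouse. Con libraries, named WT in the labels, came from mice given PBS, which the study's text describes as floxed Spc-p300 f/f animals and its supplementary methods as C57BL/6. BLM libraries came from such mice given bleomycin at 4 mg/kg into the trachea, a drug that injures the lung and is followed by fibrosis. KO and KOBLM libraries came from Spc-p300 d/d mice given PBS or bleomycin. In these mice the floxed p300 gene (Ep300, a histone acetyltransferase) is cut by a tamoxifen-dependent Cre expressed from the surfactant protein C promoter. The labels give tamoxifen (10 mg/kg, at 8 weeks of age) in the protocol of all groups. A supplementary legend on qRT-PCR of isolated ATII cells names vehicle or tamoxifen treatment of floxed mice. Which of them the control mice of these libraries received is not stated. The time between bleomycin and cell collection is not given for these libraries. ATII cells were sorted as CD74+ Ep-CAM+ cells, a gate that airway epithelial cells carrying both proteins could also pass.

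The conducting airways are lined mainly by secretory (club and goblet) cells and by ciliated cells. Club cells make secretoglobins, small secreted proteins of which the Scgb1a1 product (CCSP) is the most abundant, and metabolise inhaled chemicals with enzymes such as Cyp2f2. Ciliated cells carry motile cilia under the control of the transcription factor Foxj1. ATII cells of the alveoli make surfactant, and neither gene family is part of their usual definition.

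Total counts ranged from 7005005 to 11153154 per library, so that 3 counts, taken as the detection floor, correspond to 0.269 to 0.428 CPM. ATII genes were present at uneven levels. Sftpc, the surfactant protein C gene, was above the floor in 12 of 12 libraries at a mean of 122.9 CPM. It ran from 0.554 CPM (5 counts) in KOBLM replicate 3 to 611.7 CPM in Con replicate 2. The 12 ATII genes summed to between 585.0 and 3504 CPM. Without Lyz2, which macrophages also express and which had the highest mean of the 12 (1435 CPM), the other 11 summed to between 183.6 and 2180 CPM. Macrophage genes were also high. The 13 macrophage genes summed to between 992.2 and 39037 CPM, led by Chil3 at a mean of 8675 CPM. One library, BLM replicate 3, stood apart: 6847 symbols had a count in it against 8790 to 13838 in the others, its rank correlations with BLM replicates 1 and 2 were 0.47 and 0.48 against 0.69 to 0.89 for the other pairs within groups, and the sum of 10 pluripotency genes was 2251 CPM there, while the other libraries had 0.648 to 17.97 CPM. Several results that use BLM libraries are therefore also given without it. The targeted gene, Ep300, was not lower in the libraries labelled KO and KOBLM (54.2 to 169.4 CPM) than in Con and BLM (42.6 to 143.4 CPM; fitted log2 difference 0.39, SE 0.49). The reads come from the 3′ end of transcripts, away from the floxed exon, so this value does not test the deletion. The study itself reports the deletion by qRT-PCR of isolated ATII cells and by p300 immunofluorescence in lungs.

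The 8 genes together took 23466 of 108006104 counts, and 96.7% of these were of Scgb1a1 and Tppp3. Those were the only members with counts above the floor in all 12 libraries. Since the kit reads transcript ends, counts do not grow with transcript length and are compared between genes as CPM. The coding sequences of Scgb1a1 and Tppp3 are shown because the edgeR calls among the tested members, with all libraries and the thresholds given below, concern one of them. Scgb1a1 (ENSMUSG00000024653) lies on the minus strand at chr19:9083636-9087958 of GRCm38 and has 3 exons, and its coding sequence of 291 bases encodes 96 residues. Tppp3 (ENSMUSG00000014846) lies on the minus strand at chr8:105467493-105471526 and has 531 coding bases, of which the last 300 are printed. Both are read 5′ to 3′ from GENCODE transcripts, with capitals marking the start codon (Scgb1a1) and the stop codon (both). The transcripts have 128 (Scgb1a1) and 167 (Tppp3) bases after the stop codon, and where the reads fell along them was not measured.
Scgb1a1: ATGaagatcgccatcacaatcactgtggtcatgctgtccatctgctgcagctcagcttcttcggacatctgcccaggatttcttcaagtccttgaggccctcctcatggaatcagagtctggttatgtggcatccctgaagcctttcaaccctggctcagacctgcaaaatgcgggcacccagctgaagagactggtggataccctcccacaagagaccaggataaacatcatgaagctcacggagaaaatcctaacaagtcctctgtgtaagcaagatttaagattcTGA
Tppp3: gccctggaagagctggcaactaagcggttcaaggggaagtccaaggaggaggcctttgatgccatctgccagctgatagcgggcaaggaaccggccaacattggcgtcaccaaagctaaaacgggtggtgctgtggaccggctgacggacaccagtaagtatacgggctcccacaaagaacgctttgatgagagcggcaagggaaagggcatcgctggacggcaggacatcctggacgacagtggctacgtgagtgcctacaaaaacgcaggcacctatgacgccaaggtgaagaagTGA
No 75-base window in the last 476 bases of the Scgb1a1 transcript, or in the last 500 of the Tppp3 transcript, occurs in a transcript of another gene. The same holds for the last 500 bases of the other 6 members. No annotated gene overlaps 7 of the 8 members, while Gm15883 lies on the opposite strand of Cyp2f2.

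Scgb1a1, the club cell secretoglobin, was highest in the BLM group. The Con libraries had 15.5, 63.3 and 106.7 CPM (116, 592 and 1132 counts; mean 61.8 ± 45.6, SD, n = 3 mice). The BLM libraries had 237.0, 206.7 and 216.8 CPM (1660, 1567 and 2418 counts; mean 220.2 ± 15.4). The KO libraries had 13.8, 20.9 and 20.5 CPM (136, 152 and 222 counts; mean 18.4 ± 4.0). The KOBLM libraries had 29.3, 112.0 and 21.2 CPM (219, 1163 and 191 counts; mean 54.2 ± 50.3). All 3 BLM libraries lay above the other 9, KO was lowest and tight, and Con and KOBLM each spread over several fold, with the highest library 6.88 and 5.29 times the lowest. In the order BLM, Con, KOBLM and KO, the ranges of Con and KOBLM overlapped, as did those of Con and KO. Because the cells were measured in bulk, fewer cells of a type and less RNA per cell cannot be told apart for any gene here.

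**Figure D1:**
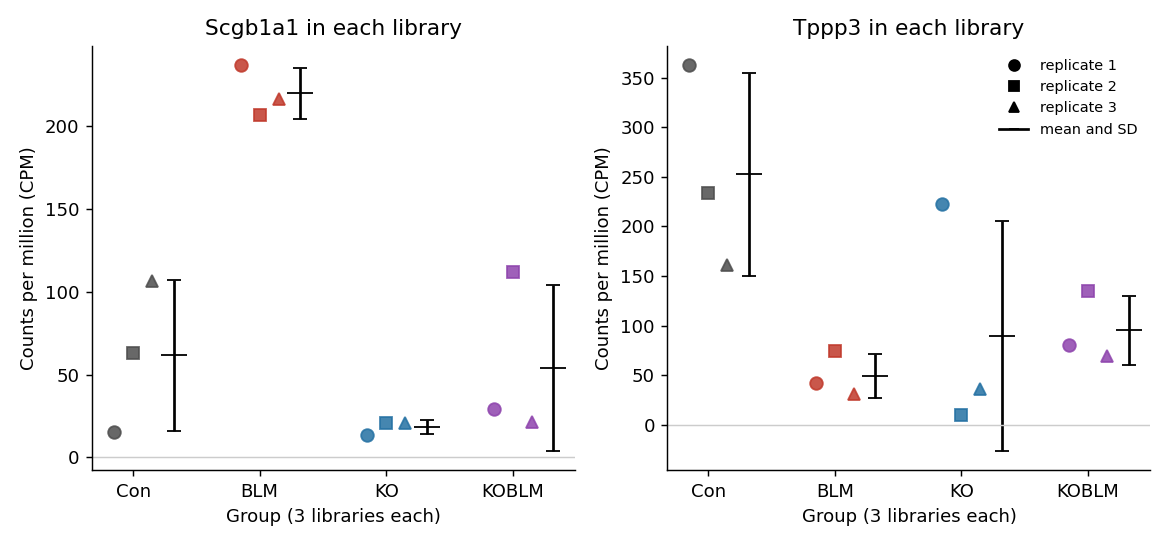
CPM of Scgb1a1 (left) and Tppp3 (right) in each of the 12 libraries by group, with the mean and SD of the 3 libraries beside them; marker shapes are replicate numbers, and an SD larger than its mean reaches below 0. Scgb1a1 sits between 206.7 and 237.0 CPM in BLM, above all other libraries, and Tppp3 sits between 161.3 and 362.5 CPM in Con, with KO spread from 10.0 to 222.3 CPM.

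The 13054 genes with enough counts were compared by edgeR's quasi-likelihood test, and a gene was called where the fold change exceeded 1.5 and the unadjusted p fell below 0.05, the kind of threshold that the study used. The calls are therefore not corrected for the number of genes. No gene had a Benjamini-Hochberg adjusted p under 0.05 with edgeR in any of the 7 comparisons, and those of the 4 tested members lay between 0.995 and 1. With DESeq2, between 57 and 116 genes per comparison passed at the adjusted level, none of them a member.

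Bleomycin in mice of the control genotype (BLM versus Con) was accompanied by 3.56 times the mean Scgb1a1 CPM. The fitted log2 fold change was 1.86 (SE 0.80, 95% interval 0.14 to 3.57, adjusted p = 0.995 with edgeR), a call shared with 2.19% of all tested genes called higher. The ranges did not overlap, as was so for 5.32% of tested genes in this direction, and the exact permutation test gave p = 0.1, the smallest that 3 against 3 allows. The call was lost without Con replicate 1 (1.39), Con replicate 2 (1.91), BLM replicate 1 (1.76) or BLM replicate 2 (1.80). It was kept without BLM replicate 3 (1.99), the library that stood apart. The summed level of 6 fibroblast genes was 1134 to 1839 CPM in BLM, 91.2 to 457.1 CPM in Con, 40.2 to 418.1 CPM in KO and 157.0 to 657.7 CPM in KOBLM. Of the 6 genes, the collagen genes Col1a2 and Col3a1 were called higher in BLM versus Con, 3 were tested and not called, and Lum was above the floor in 0 libraries. Their part in the Scgb1a1 differences was not tested.

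In bleomycin-treated mice, Scgb1a1 was 4.06 times lower by mean CPM in KOBLM than in BLM. This comparison uses the same BLM libraries as the one above. The fitted log2 fold change was -1.98 (SE 0.80, 95% interval -3.70 to -0.26), a call shared with 1.78% of tested genes in this direction. The ranges did not overlap (4.98% of tested genes in this direction; exact permutation p = 0.1). The call was lost without BLM replicate 1 (-1.89), BLM replicate 2 (-1.93), KOBLM replicate 1 (-1.64) or KOBLM replicate 3 (-1.61), while without KOBLM replicate 2, the high one, it stood at -2.998. Without BLM replicate 3 it was kept (-2.11).

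Without bleomycin, Scgb1a1 was not called between KO and Con. The fitted log2 fold change was -1.62 (95% interval -3.33 to 0.08), and Con replicate 1, at 15.5 CPM, fell among the KO libraries. The difference was called without Con replicate 1 (-2.08), without BLM replicate 3 (-1.62), without KOBLM replicate 2 (-1.62) and with library totals in place of TMM, edgeR's depth scaling (-1.75). Between KOBLM and KO the fitted log2 fold change was 1.498 (95% interval -0.20 to 3.20), also not called. There all KOBLM libraries lay above all KO libraries, as they did for 3.95% of tested genes (exact permutation p = 0.1), though the lowest KOBLM library, at 21.2 CPM, was close to the highest KO library, at 20.9 CPM. The KOBLM versus KO difference was called without KOBLM replicate 3 (1.86).

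Over all 12 libraries, Scgb1a1 was higher with bleomycin and lower in KO and KOBLM libraries as 1 set. The 6 bleomycin libraries had a median of 159.4 CPM (21.2 to 237.0) and the 6 PBS libraries 20.7 CPM (13.8 to 106.7), which overlap. The fitted log2 fold change for bleomycin over both genotypes was 1.68 (SE 0.56, 95% interval 0.47 to 2.88), with 2.72% of tested genes called higher, and the exact stratified permutation test gave p = 0.005, the smallest it can give. The 6 Con and BLM libraries had a median of 156.7 CPM (15.5 to 237.0) and the 6 labelled as deleted 21.02 CPM (13.8 to 112.0), which overlap too. The log2 fold change for genotype over both treatments was -1.80 (SE 0.57, 95% interval -3.01 to -0.59), with 1.95% of tested genes called lower, and the exact stratified p was 0.015. Both calls were kept in all 12 fits with 1 library left out, at 1.17 to 1.97 for bleomycin and -2.31 to -1.51 for genotype. The interaction, which asks whether bleomycin's log2 fold change differs between genotypes, was -0.36 (95% interval -2.71 to 1.995).

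Tppp3, a tubulin polymerisation-promoting protein that is abundant in ciliated cells and also made by other cells, was highest in Con. The Con libraries had 362.5, 233.9 and 161.3 CPM (2710, 2187 and 1711 counts; mean 252.5 ± 101.9, SD, n = 3 mice). The BLM libraries had 42.8, 74.4 and 31.2 CPM (300, 564 and 348 counts; mean 49.5 ± 22.4). The KO libraries had 222.3, 10.0 and 36.5 CPM (2193, 73 and 394 counts; mean 89.6 ± 115.7). The KOBLM libraries had 81.0, 135.0 and 69.7 CPM (605, 1402 and 629 counts; mean 95.2 ± 34.9). All Con libraries lay above all BLM and all KOBLM libraries. KO replicate 1 lay inside the Con range and was 22.2 times the lowest KO library, so that KO overlapped each other group.

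Tppp3 was 5.10 times lower by mean CPM in BLM than in Con. The fitted log2 fold change was -2.27 (SE 0.92, 95% interval -4.23 to -0.31, adjusted p = 0.995 with edgeR), with 2.08% of tested genes called lower. The ranges did not overlap, as was so for 11.8% of tested genes in this direction, and the exact permutation test gave p = 0.1. The call was lost without Con replicate 1 (-1.94), BLM replicate 1 (-2.18) or BLM replicate 3 (-1.95). Sums of ATII genes moved in the same direction, 2318 to 3259 CPM in Con and 585.0 to 1422 CPM in BLM, and without Lyz2, the most abundant of them, the sums were 637.3 to 2180 CPM in Con and 457.0 to 576.1 CPM in BLM. Sums of macrophage genes were 10293 to 22442 CPM in Con and 992.2 to 9644 CPM in BLM, and without Chil3, the most abundant of them, the ranges overlapped (5168 to 7313 and 602.8 to 5880 CPM). Of the 13 macrophage genes, 3 were called lower (Itgax, Ear2 and Mrc1) and 3 higher (the complement genes C1qa, C1qb and C1qc) in BLM versus Con. Their part in the Tppp3 difference was not tested.

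The other Tppp3 comparisons were not called with all libraries in the 4-group fit. The log2 fold change was 0.95 in KOBLM versus BLM (95% interval -0.94 to 2.84) and -1.40 in KO versus Con (-3.31 to 0.51). It was 0.08 in KOBLM versus KO (-1.79 to 1.95), -1.10 for bleomycin over both genotypes (-2.44 to 0.24) and -0.22 for genotype over both treatments (-1.55 to 1.10). KO replicate 1 decided several of these. Without it, Tppp3 was called lower in KO than in Con (-3.44), higher in KOBLM than in KO (2.12) and lower for genotype over both treatments (-1.24). The interaction was 2.35 (-0.33 to 5.04) with all libraries and was called at 4.40 without that library. With all libraries it was also called when the replicate number was added as a block (2.78), although the numbers did not pair the mice. Without KO replicate 2, the lowest, bleomycin over both genotypes was called at -1.38.

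The ratio of Scgb1a1 to Tppp3 was above 1 in every BLM library and below 1 in every Con and KOBLM library. That BLM and Con do not overlap in it follows from the ranges of both genes given above. The Scgb1a1 CPM was 2.78 to 6.95 times the Tppp3 CPM in BLM and 0.0428 to 0.662 times it in Con. In KOBLM it was 0.304 to 0.830 times, overlapping Con, and in KO it ran from 0.0620 to 2.08 times. Over the 12 libraries, log2(CPM + 1) of both genes had a Pearson r of -0.14 (permutation p = 0.656) and a Spearman rho of -0.29 (permutation p = 0.354). The r was 0.12 without the 2 libraries farthest from the Scgb1a1 median and -0.19 for deviations from the group means. Scgb3a2 had an r of 0.20 with Scgb1a1 (permutation p = 0.518, rho 0.14) and of -0.14 with Tppp3 (permutation p = 0.665, rho 0.11). These were the 3 pairs of members above the floor in at least 6 libraries, and the adjusted p was 0.665 for r in each permutation test.

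The other secretory members were sparse. Scgb3a2, a secretoglobin of the small airways, had 1, 15 and 222 counts in Con, 63, 37 and 0 in BLM, 26, 65 and 0 in KO, and 73, 0 and 0 in KOBLM. It was above the floor in 7 of 12 libraries and reached 20.9 CPM in Con replicate 3. Cyp2f2, a club cell cytochrome P450, had 58, 67 and 0 counts in Con, 0, 76 and 0 in BLM, 1, 10 and 0 in KO, and 15, 0 and 1 in KOBLM. It was above the floor in 5 libraries and reached 10.0 CPM in BLM replicate 2. For both genes each group held at least 1 library with 10 or more counts and at least 1 with 0 or 1, and all groups overlapped.

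Neither gene was called in any of the 7 comparisons, and the intervals were wide. The direction of each value named here turned in at least 1 fit with a library left out. The log2 fold change of Scgb3a2 was -0.54 in BLM versus Con (95% interval -7.01 to 5.92) and -0.51 in KOBLM versus BLM (-6.98 to 5.95). That of Cyp2f2 was -0.39 in BLM versus Con (-7.14 to 6.36) and -2.31 in KOBLM versus BLM (-9.38 to 4.75). For genotype over both treatments it was -0.59 for Scgb3a2 (-5.16 to 3.99) and -2.68 for Cyp2f2 (-7.75 to 2.39). Cyp2f2 had 4.16 CPM on average in the 6 Con and BLM libraries and 0.599 CPM in the 6 labelled as deleted, with overlapping ranges. Changes of the size seen for Scgb1a1 lie well inside all of these intervals and were not detectable in these genes.

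**Figure D2:**
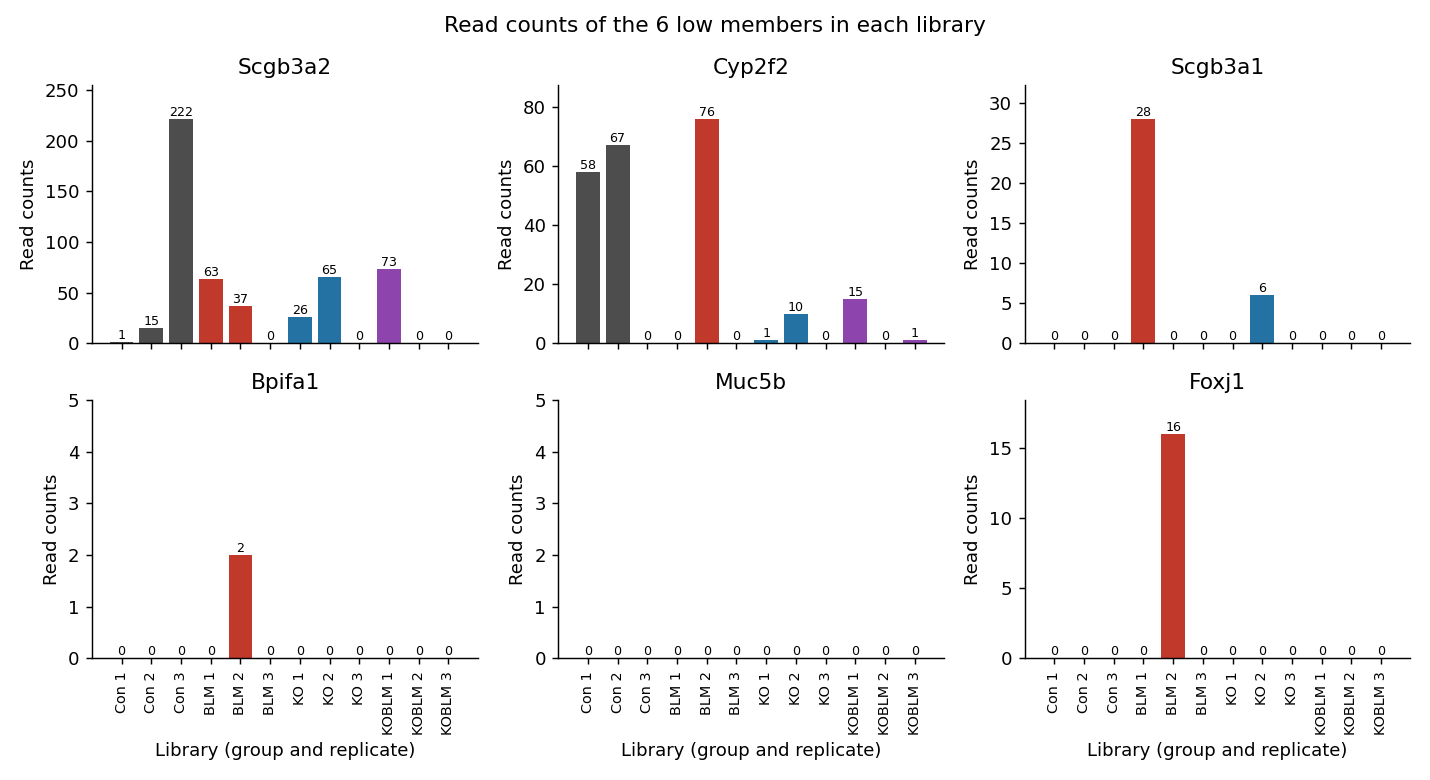
Read counts of the 6 members other than Scgb1a1 and Tppp3 in each library, each panel with its own axis from 0 and the count printed over each bar. Scgb3a2 has at most 1 count in at least 1 library of each group and up to 222 counts in others, Cyp2f2 has at most 76 counts in any library, Scgb3a1 and Foxj1 have counts in 2 and 1 libraries, Bpifa1 has 2 counts in 1 library, and Muc5b has none.

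The remaining 4 members did not pass the low-count filter. Scgb3a1, a secretoglobin of larger airways, had 28 counts in BLM replicate 1 and 6 in KO replicate 2. Bpifa1, which encodes a secreted airway defence protein, had 2 counts in BLM replicate 2, at or under the floor. Muc5b, which encodes a gel-forming mucin, had 0 counts in all 12 libraries, which allows up to 0.269 to 0.428 CPM per library by counting error alone. Foxj1, the ciliated cell regulator, had 16 counts (2.11 CPM) in BLM replicate 2 and 0 in the other 11 libraries. The 3 genes of these 4 with any count had their counts in 1 or 2 libraries each. High counts of Scgb1a1 or Tppp3 did not always come with the other markers of the same cell type. BLM replicate 3 had 2418 counts of Scgb1a1 and 0 of each other secretory member. It is, however, the library that stood apart, with 6847 symbols detected. BLM replicates 1 and 2 had 63 and 37 counts of Scgb3a2. KOBLM replicate 2 had 1163 counts of Scgb1a1 and 0 of each other secretory member. Con replicate 1 had 2710 counts of Tppp3 and 0 of Foxj1.

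Few calls were made among the 4 tested members. In BLM versus Con 2 were called, 1 higher and 1 lower, where 4.27% of all tested genes were called. KOBLM versus BLM called 1 member (3.16% of all genes), bleomycin over both genotypes 1 (4.47%) and genotype over both treatments 1 (2.9%). KO versus Con (1.44% of all genes), KOBLM versus KO (1.69%) and the interaction (2.82%) called 0 of 4. DESeq2 gave the same number of member calls in each of the 7 comparisons. Its share of all genes called by the same thresholds was 7.25% in BLM versus Con, 5.78% in KOBLM versus BLM, 2.87% in KO versus Con and 3.52% in KOBLM versus KO. It was 6.43% for bleomycin, 4.4% for genotype and 4.79% for the interaction. As 4 genes passed the filter and their calls differ in direction, these counts describe single genes and not the set of 8.

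**Figure D3:**
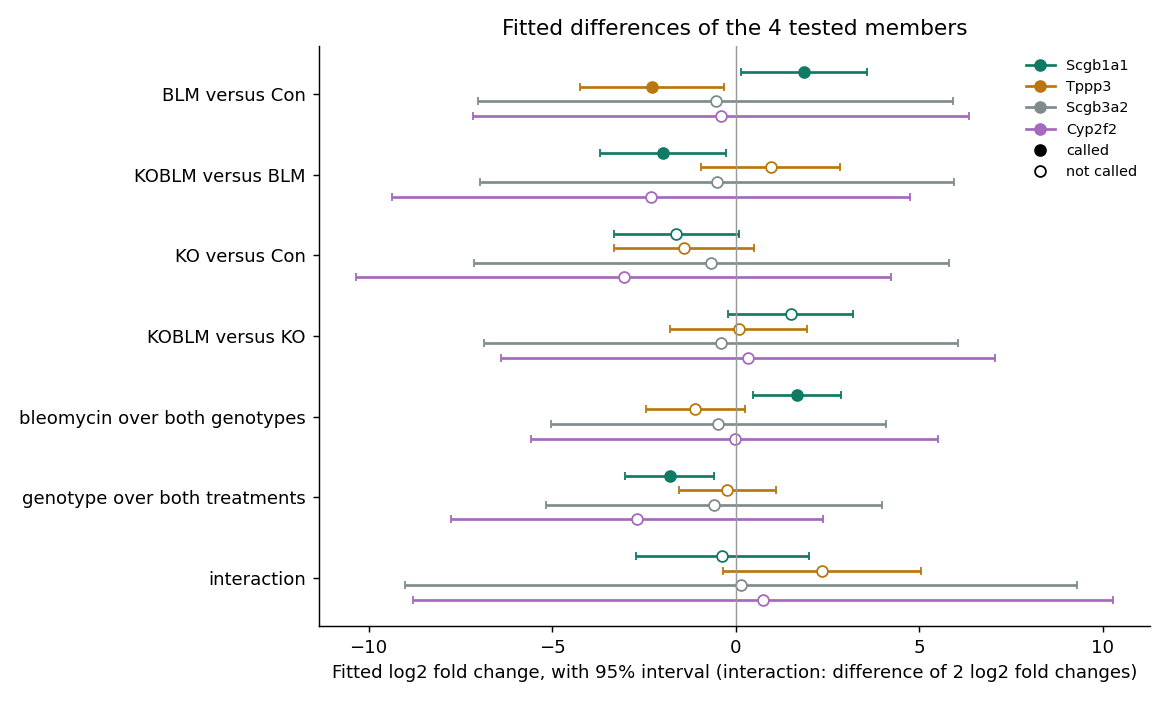
Fitted log2 fold changes of the 4 tested members in the 7 comparisons, with 95% intervals; filled points are called, which takes a fold change above 1.5 with the unadjusted p below 0.05. Scgb1a1 is called in 4 comparisons and Tppp3 in BLM versus Con, while the intervals of Scgb3a2 and Cyp2f2 span several log2 units on both sides of 0.

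**Figure D4:**
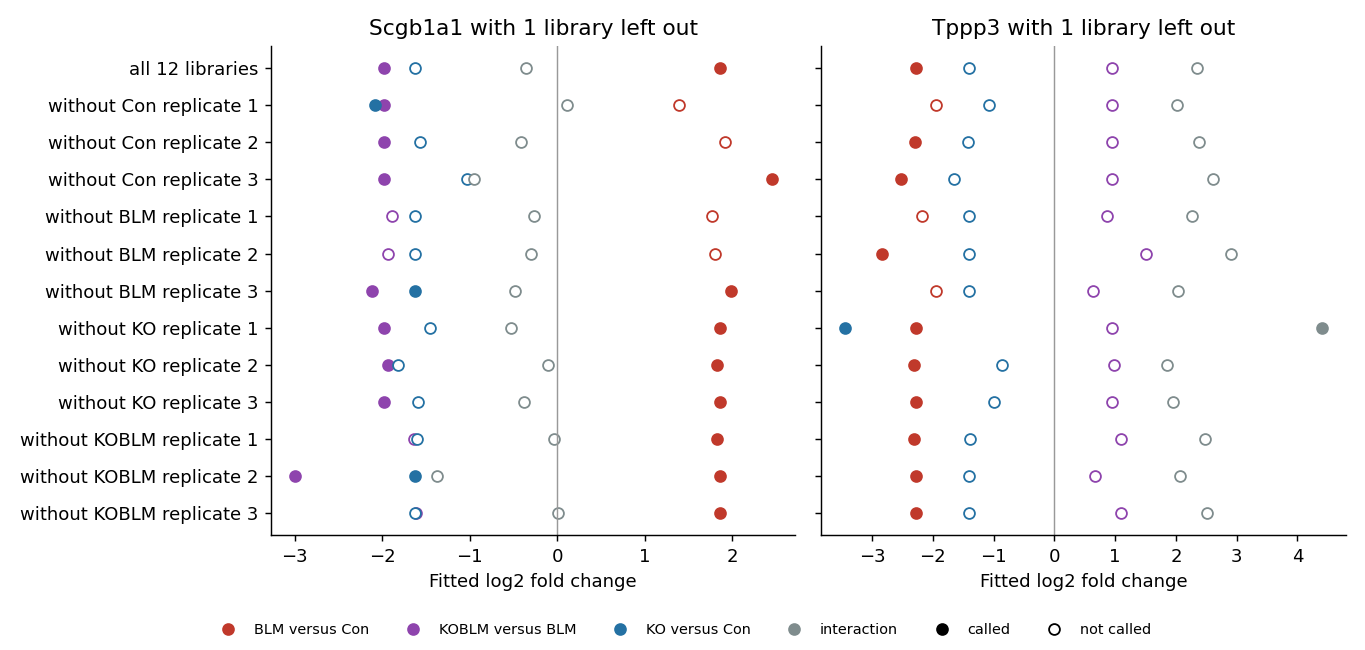
Fitted log2 fold changes of Scgb1a1 (left) and Tppp3 (right) in 4 comparisons with all 12 libraries and with each library left out; filled points are called. Scgb1a1 stays between 1.39 and 2.45 in BLM versus Con, while Tppp3 in KO versus Con moves from -1.40 to -3.44 without KO replicate 1.

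Other genes of ciliated cells were partly detected. Of 37 further ciliated genes in the tables, 27 were above the floor in some library, 9 were at 0 everywhere, and 14 passed the filter. In BLM versus Con 0 of the 14 were called by edgeR, with 3 positive and 10 negative log2 fold changes, 1 at 0 and a median of -0.55 beside -0.08 for all tested genes. The CPM of all 37 summed to 155.1, 173.6 and 212.9 in Con and 82.8, 97.8 and 90.1 in BLM, with no overlap. It was 107.0, 66.7 and 47.9 in KO and 155.5, 170.8 and 72.6 in KOBLM. Large parts of these sums came from few genes. Sec14l3 had 17.8, 45.3 and 60.0 CPM in Con and 11.6, 10.0 and 0 in BLM. In BLM replicate 3, Dnali1 and Rfx3 had 44.7 and 43.7 CPM. The most abundant of the 37 was Dnah11, an axonemal dynein heavy chain gene, with 37.6, 43.0 and 67.0 CPM in Con and 3.71, 9.10 and 0 in BLM. Its log2 fold change in BLM versus Con was -3.35 (SE 1.62). It was called lower when BLM replicate 3 was left out, and it was the 1 ciliated gene that DESeq2 called here. Without that library the 20 ciliated genes then tested had a median of -0.04 beside 0.05 for all genes.

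In KO versus Con 0 of the 14 ciliated genes were called by edgeR (2 positive, 12 negative, median -0.87 beside -0.09), and in KOBLM versus BLM 0 of 14 (10 positive, 4 negative, median 1.27 beside 0.10). In KOBLM versus KO 0 of 14 were called (median 1.17 beside 0.08), as for bleomycin over both genotypes (median 0.11 beside 0.03) and the interaction (median 2.48 beside 0.23). DESeq2, which gave a p for 13 of them, called 2 in KO versus Con (Enkur and Sec14l3, both lower) and 1 in each of the other 4 of these comparisons. For genotype over both treatments 2 were called. Myb, a regulator of multiciliated cell differentiation that is also expressed in blood cell precursors, was called higher with 47 counts in KO replicate 1, 73 and 60 in KOBLM replicates 1 and 3, and 0 elsewhere. Enkur, a sperm flagellum and cilium gene, was called lower with 104 counts in Con replicate 1, 86 and 20 in BLM replicates 1 and 2, and 0 elsewhere. Both calls rest on 3 libraries.

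Of 29 further secretory genes, 23 were above the floor in some library, 5 were at 0 everywhere, and 12 passed the filter. The most abundant was Hp, the haptoglobin gene, which is also made outside the airway, with 8.83, 18.4 and 85.5 CPM in Con and 307.6, 136.1 and 0 in BLM (log2 fold change 2.12; called without BLM replicate 3). The 12 genes had a median log2 fold change of -0.24 in BLM versus Con beside -0.08 for all genes. Con libraries had 264.7 to 504.1 CPM for the sum of the full list. The sum was 322.3 to 624.6 CPM in BLM libraries, 164.0 to 324.1 CPM in KO libraries and 237.0 to 367.7 CPM in KOBLM libraries, with overlapping ranges between Con and each other group.

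Krt4, a keratin of airway intermediate cells, was called lower in BLM versus Con, with 90, 237 and 8 counts in Con and 0 in each BLM library, at least 34.9-fold lower against a floor of 3 counts per library. It was also called lower in KOBLM versus KO, with 0, 1 and 0 counts in KOBLM and 99, 0 and 289 in KO, and for bleomycin over both genotypes. In each of these 3 comparisons Krt4 was the 1 gene of the 12 that edgeR called. DESeq2 called Krt4 and Reg3g, an antimicrobial lectin gene, in BLM versus Con and for bleomycin over both genotypes, 1 higher and 1 lower each time, and Krt4 alone in KOBLM versus KO. Sox2, an airway transcription factor that is also a pluripotency gene, was called lower in KOBLM versus BLM and for genotype over both treatments. It had 3225 of its counts in BLM replicate 3, with 40 in BLM replicate 2 and 33 in Con replicate 1 and 0 in the other 9 libraries, and without BLM replicate 3 it was not called in KOBLM versus BLM. In KO versus Con and in the interaction 0 of 12 were called by edgeR, against 2 (Reg3g and Sox2) and 1 (Reg3g) by DESeq2.

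Basal and neuroendocrine cell genes were each above the floor in at most 5 of 12 libraries. Of 8 basal genes, Krt5 and Trp63 were above it in 0 libraries, and 2 genes passed the filter. Dapl1, expressed in airway epithelial cells but not confined to basal cells, was called lower in BLM versus Con, with 40, 52 and 430 counts in Con and 0 in each BLM library, at least 47.1-fold lower against the same floor. It was also called lower in KOBLM versus KO and for bleomycin over both genotypes. Ngfr, a neurotrophin receptor of basal cells, was called lower for genotype over both treatments, with 53 counts in Con replicate 2, 12 and 40 in BLM replicates 1 and 2, and 1 in KO replicate 3. Of 8 neuroendocrine genes 3 were tested and 0 called by edgeR or DESeq2 in the 7 comparisons, and the most abundant, Chgb, had 314 of its counts in BLM replicate 3.

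Genes of the other cell type lists were called as follows. For ATII cells, Sftpa1, Sftpc and Cxcl15 were called lower in BLM versus Con and for bleomycin over both genotypes, Etv5 higher for bleomycin and lower for genotype over both treatments, and Lyz2 higher in KOBLM versus BLM. Ager, of the alveolar type I list, was called lower in KO versus Con and for genotype. For macrophages, Itgax, Ear2 and Mrc1 were also called lower and C1qa and C1qc higher for bleomycin. Itgax was called higher in KOBLM versus BLM, for genotype and in the interaction, and C1qa higher in KO versus Con, while C1qa, C1qb and C1qc were called lower in the interaction. Of the B and T cell genes, Ms4a1 and Cd79a were called lower in BLM versus Con, Cd79a lower for bleomycin, and Cd3g higher in KOBLM versus KO and for bleomycin. The fibroblast genes Col1a2 and Col3a1 were called higher for bleomycin, and Col3a1 lower in KOBLM versus BLM. Of the pluripotency genes, Tet1, Tdgf1 and Nanog were called higher in BLM versus Con, and these with Pou5f1 lower in KOBLM versus BLM. Tet1 was called higher for bleomycin, and Pou5f1 and Nanog lower for genotype. Without BLM replicate 3, Tet1 alone of the pluripotency genes stayed called in BLM versus Con and for bleomycin. None of them was then called in KOBLM versus BLM or for genotype. The calls of Etv5, Ms4a1 and Cd79a were also lost without that library. The other calls named here were kept, and some further genes of these lists were called only then. Kdr, of the endothelial list, was called higher in the interaction. The most abundant genes of the lists without another mention were Akap5 (type I), S100a9 (neutrophil), Cd79b (B and T cell), Dppa5a (pluripotency) and Cd74 (the sorting gate).

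**Figure D5:**
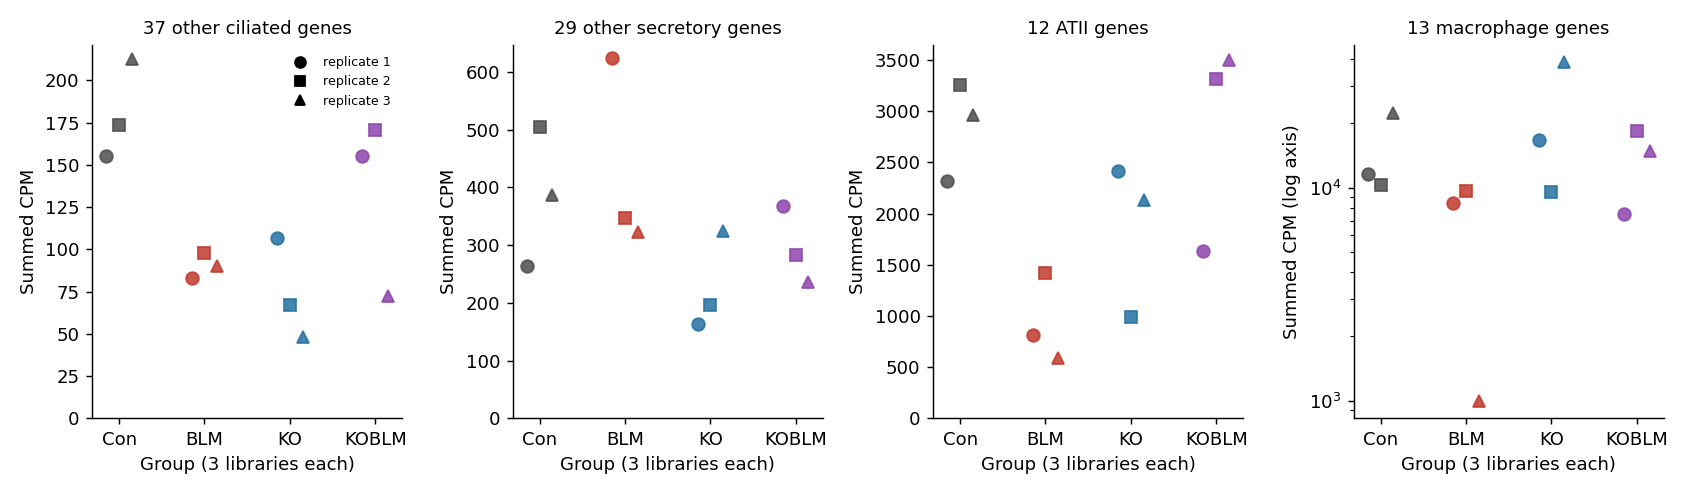
Summed CPM in each library of 37 further ciliated, 29 further secretory, 12 ATII and 13 macrophage genes (the last on a log axis); marker shapes are replicate numbers. The ciliated sum in BLM (82.8 to 97.8) lies below that in Con (155.1 to 212.9), the secretory sums overlap, and BLM replicate 3 has the lowest macrophage sum (992.2).

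Likeness of pattern was measured as Pearson r of log2(CPM + 1) over the 12 libraries, which share depth and group differences, among 8941 other tested genes with a mean of at least 10 CPM. The genes most like Scgb1a1 were Fbn1 (0.89), Malsu1 (0.89), Gm10684 (0.88), Amica1 (0.87) and Thbs1 (0.85), none of them a gene of the airway lists. Those most like Tppp3 were Map1lc3a (0.95), Igflr1 (0.93), Kazald1 (0.91), Zfp747 (0.89) and Ypel2 (0.89), again none from the lists. Most genes of the airway lists had a mean under 10 CPM and could not have been named. Of the ciliated list, only Dnah11, Dnali1 and Sec14l3 reached that mean. The absence of list genes among those named therefore says little. The r with Scgb1a1 over the 12 further secretory genes had a median of 0.05 (-0.49 to 0.42) beside -0.12 over all candidates. The r with Tppp3 over the 14 further ciliated genes had a median of 0.22 (-0.24 to 0.71, highest for Sec14l3) beside 0.18 over all candidates. Over the 12 ATII genes it had a median of 0.42. Unlike the candidates, the genes of these lists were included below a mean of 10 CPM too.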

How the data were processed

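RNA of sorted ATII cells from 12 mice was sequenced with a 3′ kit (QuantSeq, Lexogen), and the authors deposited raw read counts per gene symbol for each library. The submitters' processing notes name Bowtie2, edgeR and mm10 without saying what each did. The counting program and annotation are not given in the sources used here. Symbols listed more than once (35) were summed, leaving 23238. CPM used library totals, which include the ribosomal entry Rn45s (2.04 to 21.6% of counts). Genes were kept by filterByExpr (minimum count 10), which left 13054 genes and 4 of the 8 members, and were fitted in 1 model of the 4 groups with TMM factors (0.836 to 1.25) by edgeR 4.0.16's quasi-likelihood test (R 4.3.3), two-sided, with Benjamini-Hochberg adjustment over all tested genes. The biological coefficient of variation was 1.44. Exact permutation tests of log2(CPM + 1) were two-sided, and the pooled ones permuted labels within treatment or genotype. Correlations used 100000 resamples. Alternatives used other scaling, no filter, DESeq2 1.42.0, a replicate block, and left-out libraries. The fit was also run on simulated counts, with a small spread between libraries and with a spread near that seen here. Recovery of changed genes was required at the small spread only. At the larger spread only the share of false calls was bounded. The simulation therefore does not show which changes could be found in these data. Intervals of counts and floors cover counting error only. The edgeR p-values rest on a spread between these mice that also borrows from the other tested genes. Correlation p-values shuffle all libraries, so group differences enter them. Sequences and coordinates came from GENCODE on GRCm38, the assembly that mm10 names. Of the 8 members, 3 had a promoter in the RefSeq table, none of them called, and no promoter is shown. Named were the 8 members, Ep300, list genes called in a comparison (at most 6 per list and comparison) with the most abundant gene of each list, and the 5 genes most like Scgb1a1 and Tppp3, the latter in place of Foxj1, which did not pass the filter. Sec14l3, Dnali1, Rfx3, Reg3g, Krt5, Trp63 and Lum were also named after their values were seen. List counts without BLM replicate 3 and list sums without their most abundant gene were chosen after seeing the data. The members and lists were chosen with earlier results of these data known.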

Additional observations from a re-analysis of the deposited data

How the results depend on the processing

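With a biological coefficient of variation of 1.44 and 3 mice per group, only large differences could be called, and the values of Scgb3a2 and Cyp2f2 rest on few counts. Under the rule of an adjusted p, edgeR called 0 members in BLM versus Con, KOBLM versus BLM, bleomycin over both genotypes and genotype over both treatments. By fold alone it called 3 in KOBLM versus BLM (64.1% of all genes), 4 in KO versus Con (52.5%), 1 in KOBLM versus KO (55.2%), 2 for bleomycin (51.8%), 3 for genotype (48.7%) and 2 for the interaction (71.9%). Library totals in place of TMM moved the median log2 fold change of all genes in KO versus Con from -0.09 to -0.21. They called 1 member there (Scgb1a1, -1.75) and 1.65% of all genes. Without the low-count filter the interaction called 1 member (Scgb3a1, which has counts in 2 libraries) and 4.04% of all genes. DESeq2's size factors, its test, leaving out Rn45s and fitting only the compared groups changed no call of Scgb1a1 or Tppp3. DESeq2 gave no p for Cyp2f2, which has no value under that test.

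The replicate numbers did not pair the mice: deviations of same-numbered libraries correlated between -0.11 and 0.10, with 0 of 12 pairs over 0.1. With the replicate block the interaction called 1 member (Tppp3, 2.78) and 1.85% of all genes. Under the block, Cyp2f2 turned to 0.55 for bleomycin over both genotypes and to 1.10 in KOBLM versus BLM. Scgb3a2 in BLM versus Con moved from -0.54 to -6.14, and no other call of a member changed.

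With each library left out in turn, members called ranged from 0 to 2 in BLM versus Con and from 1 to 2 for bleomycin and for genotype. They ranged from 0 to 1 in KOBLM versus BLM, KO versus Con, KOBLM versus KO and the interaction. Of all tested genes, those fits called 2.08 to 5.45% in BLM versus Con, 1.67 to 3.34% in KOBLM versus BLM and 0.627 to 3.2% in KO versus Con. The shares were 0.741 to 3.07% in KOBLM versus KO, 3.46 to 7.16% for bleomycin, 2.59 to 4.97% for genotype and 2.36 to 4.82% in the interaction. Scgb1a1 ranged from 1.39 to 2.45 in BLM versus Con, -2.998 to -1.61 in KOBLM versus BLM, -2.08 to -1.03 in KO versus Con, 0.48 to 1.86 in KOBLM versus KO and -1.37 to 0.11 in the interaction. Tppp3 ranged from -2.83 to -1.94 in BLM versus Con, -3.44 to -0.86 in KO versus Con, -0.45 to 2.12 in KOBLM versus KO, -1.38 to -0.075 for bleomycin, -1.24 to 0.062 for genotype and 1.85 to 4.40 in the interaction. For bleomycin Cyp2f2 ranged from -4.09 to 1.55 and Scgb3a2 from -4.48 to 1.03, and for genotype from -4.35 to 1.38 and from -4.57 to 0.91. In BLM versus Con they ranged from -8.51 to 0.19 and from -1.39 to 2.45, and in KOBLM versus BLM from -5.66 to 5.81 and from -8.48 to 0.33. The causes of these changes were not tested. Group mean levels were also recomputed under TMM scaling, without Rn45s or without 1 library. Of these, 99 moved by less than 1 SD, and 1 moved by more (Scgb1a1 in BLM, 255.4 CPM without Rn45s beside 220.2 CPM). Leaving out 1 of 3 libraries cannot move their mean by as much as their SD. The count of 99 therefore says nothing about dependence on single libraries. Under pseudocounts of 0.1 and 5 the exact stratified permutation p of Scgb1a1 stayed at 0.005 for bleomycin and 0.015 for genotype, while tests of 3 against 3 libraries cannot fall below 0.1 under any setting.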
